A study of Mus musculus with 12 samples.

Results

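The genes described here are 8 integrin chains, *Itga4*, *Itga5*, *Itgal*, *Itgam*, *Itgav*, *Itgax*, *Itgb1* and *Itgb2*, and *Icam1*, the gene of an adhesion molecule that several of these integrins bind. They were chosen by name, through the accession or gene name of the probe and not by a measured value, although earlier results of these data were known. They make up 9 of the 32301 genes and transcripts measured. All 9 were well above background on 12 of 12 arrays and all 9 were tested.

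RNA came from bone marrow-derived macrophages (BMDMs) of WT mice and of KpCKO mice, which are *Keap1* flox/flox::*LysM*-Cre. The Cre recombinase is driven by the lysozyme M locus, which is active in myeloid cells, so the deletion covers the cells that express it and not every cell of a culture by design. Whether the WT mice carried the Cre or the floxed allele is not given in the sources used here. All mice were C57BL/6 (C57BL6/J in the study's methods) and aged 8 weeks, and all marrow was grown with M-CSF for 7 days. The BMDMs were then untreated (Con), given LPS and IFNγ for 6 h (M1) or given IL-4 for 6 h (M2). Each of the 6 groups had 2 arrays, from culture 1 (1 WT and 1 KpCKO mouse, both male) and culture 2 (1 WT and 1 KpCKO mouse, both female). The 12 arrays therefore came from 4 mice, and the spread between the arrays of a group is that between 2 cultures that also differ in sex.

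Integrins are cell-surface receptors made of an α and a β chain. On leukocytes the β2 chain (*Itgb2*, CD18) pairs with αL (*Itgal*, CD11a), αM (*Itgam*, CD11b) or αX (*Itgax*, CD11c), and it is known for firm adhesion, phagocytosis of complement-coated particles and cell contacts, with ICAM-1 as a ligand of the αL and αM receptors. The β1 chain (*Itgb1*) pairs with α4 and α5, which bind VCAM-1 and fibronectin, and αv (*Itgav*) pairs with several β chains and binds vitronectin and other proteins that carry the RGD motif. An α chain reaches the surface only with a β chain, and mRNA levels do not show how much of either is at the surface or active.

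A level here is the log2 of the background-subtracted intensity less the log2 of the 75th percentile of its array, so a level of 0 is the brightness of that percentile. Levels are compared only between arrays for the same probe, and never between genes. The 75th percentile of the intensity ranged from 966 to 1166 over the Con and M2 arrays and was 906 and 787 on the KpCKO M1 and 757 and 548 on the WT M1 arrays, and 59.4% to 71.5% of the probes of an array were well above background. *Keap1* was lower in the KpCKO arrays, with log2 differences of −1.46 (Con), −1.71 (M1) and −1.81 (M2) and adjusted p = 0.0336, 0.00769 and 0.0161, and whether its probe lies in the deleted part is not known. Of 8 macrophage markers, 7 had a probe and all 7 were well above background on every array. Of these 7, 1 was higher and 3 lower in KpCKO M1 (median −0.40), beside 7.43% and 8.58% of all genes tested. Over the 3 stimuli 4 were lower, beside 8.54% of all genes tested. Among them was *Cd14* (−1.12), which itself changed with IL-4 in WT (−2.24). The log2 of their summed level was lower in KpCKO in 6 of 6 pairs of culture and stimulus (in M1 9.69 and 10.01 in WT, 9.12 and 9.36 in KpCKO). This and the other marker sums add scaled intensities before the log2, so the brightest probes weigh most. Among neutrophil markers *Elane* was not well above background on any array, as were *Cd3d* and *Ms4a1* of the lymphocyte markers, whereas the collagen genes *Col1a1* and *Col1a2*, stromal markers, were well above background on 12 of 12 arrays. Con, M1 and M2 were hybridised on slides 1, 2 and 3, so the effects of slide and stimulus cannot be told apart, while the genotypes were compared within a slide. In bulk RNA, fewer cells of a type and less RNA per cell cannot be told apart.

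A gene was called where limma's adjusted p (Benjamini-Hochberg over all genes tested) was below 0.05. All 9 genes rose with M1 stimulation in WT BMDMs, where 34.5% of the genes tested rose and 28.7% fell, although the rises of *Itgam* and *Itgb2* depended on the scaling, as given with these genes. In KpCKO BMDMs 7 rose with M1 and none fell, beside 24.8% and 25.4% of all genes, and the other 2, *Itgam* and *Itgax*, did not pass. With IL-4, *Itgax* rose and *Itga4*, *Itgal* and *Itgam* fell in WT (8.62% of genes rose and 8.2% fell), and *Itga4* and *Itgal* fell in KpCKO (5.68% rose and 4.54% fell). The M1 and the M2 comparison of a genotype share its Con arrays, so their values stand side by side and were not set against each other.

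Between the genotypes, *Itgax* and *Itgb2* were higher in KpCKO Con, 2 of 9 genes beside 1.39% of all genes higher and 0.827% lower. In M1, *Itgax* and *Itgb2* were higher and *Itgal*, *Itgam* and *Itgb1* lower in KpCKO, beside 7.43% of all genes higher and 8.58% lower. In M2 only *Itgb2* was called (1.28% of genes higher and 0.644% lower). Over the 3 stimuli together, *Itgax* and *Itgb2* were higher and *Itgal*, *Itgav* and *Itgb1* lower in KpCKO (8.61% of genes higher and 8.54% lower). This comparison took the arrays of a mouse as independent, although the 12 arrays came from 4 mice. Its intervals and p values therefore do not rest on the spread between mice alone, and leaving out 1 array keeps the other arrays of that mouse. The calls held with the mouse as a random block, but the consensus correlation was −0.05. A correlation below 0 does not widen the spread of a mean over the arrays of a mouse. That fit therefore could not test whether the calls hold over mice. The *Itgax* difference was 2.44 in culture 1 and 1.55 in culture 2. The summed macrophage markers were lower in KpCKO under each stimulus, as were *Itgal*, *Itgav* and *Itgb1*, although 1 marker was higher in M1. *Itgam* was lower in M1 only, with differences of −0.0001 in Con and 0.12 in M2. The part of these markers in the differences was not tested. The calls within a stimulus rest on a spread estimated over all 12 arrays. With limma on the 4 arrays of a stimulus alone none of the 9 was called, while 3, 5 and 3 of them had an unadjusted p below 0.05 in Con, M1 and M2. In that fit *Itgax* in Con had an unadjusted p of 0.00357 and an adjusted p of 0.176. The shares over all genes in that fit are not given here, so these counts are not a result about the 9 genes. Without the culture as a block, *Itgb2* was the only call left in M1 (adjusted p = 0.0273, and 0.0765 for *Itgax*). For the 9 genes the medians were −0.17 (Con), −0.40 (M1) and 0.05 (M2) on the log2 scale, beside medians of 0.00, −0.09 and 0.02 over all genes.

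**Figure D1:**
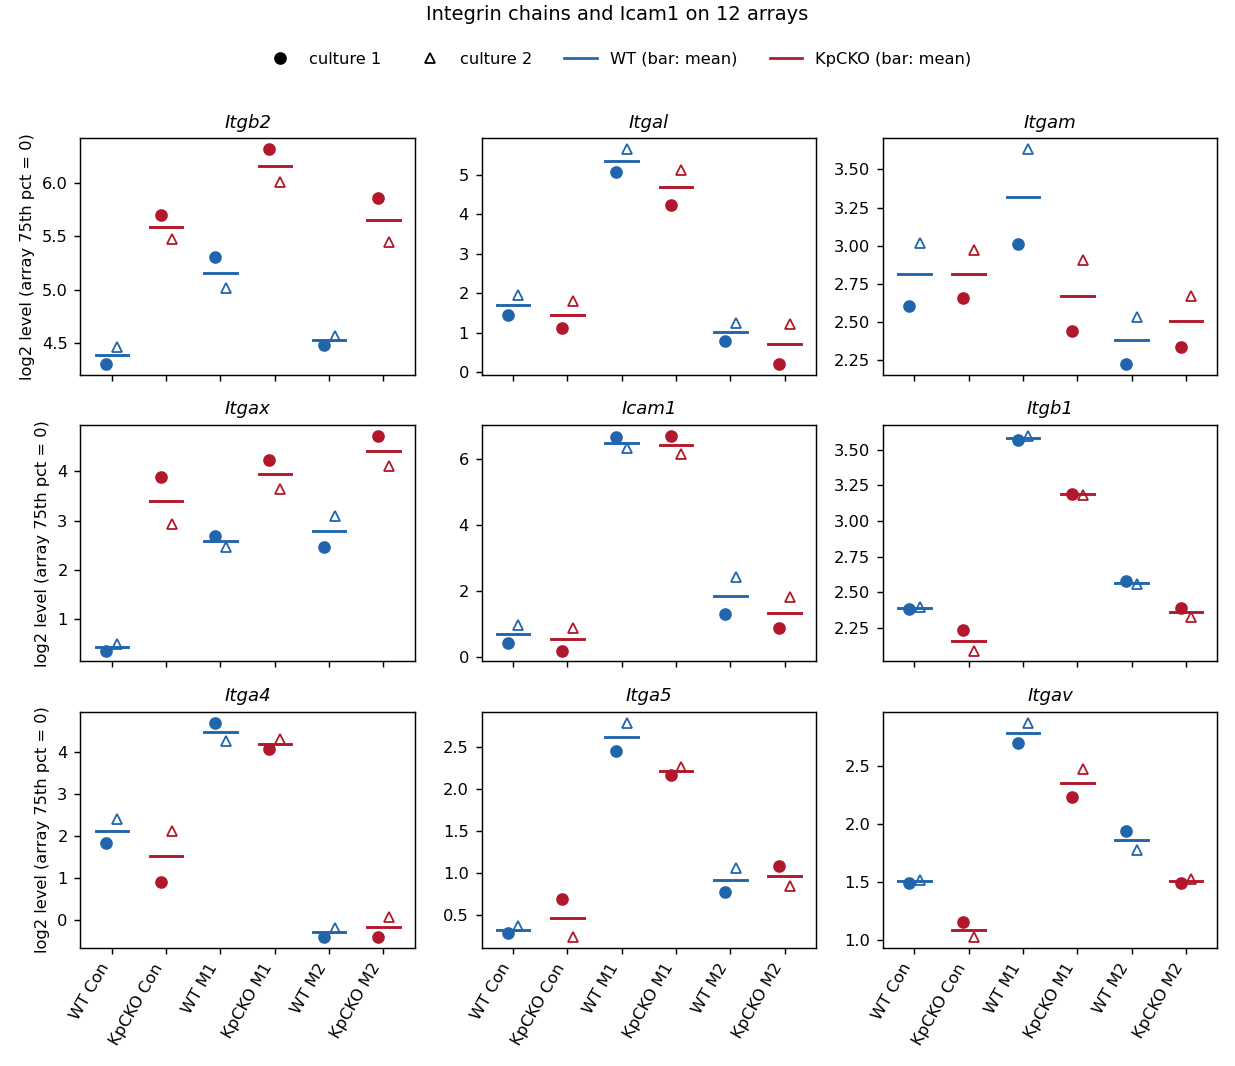
Log2 level of each gene (y axis, 0 is the 75th percentile of the array, each panel with its own scale) on each array of the 6 groups (x axis), with circles for culture 1, triangles for culture 2, and bars for the mean of the 2 arrays. *Icam1* stands above 6 on all M1 arrays and below 3 on all others, *Itgax* is below 1 only in WT Con, and *Itgb2* is higher in KpCKO than in WT under each stimulus.

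The promoters of *Icam1* and *Itgax* are shown because their genes carried the largest M1 rise and the largest difference between the genotypes among the 9. They are the 250 bases before the RefSeq start site of build GRCm38.p6, 5′ to 3′ in the direction of the gene, both on the plus strand, at chr9:21015690-21015939 for *Icam1* and chr7:128129300-128129549 for *Itgax*. Capitals mark matches to 2 of the 6 motifs searched, the interferon γ-activated site TTCNNNGAA in *Icam1* and the STAT6-type site (TTC and GAA with 4 bases between them) in *Itgax*.
Icam1 promoter: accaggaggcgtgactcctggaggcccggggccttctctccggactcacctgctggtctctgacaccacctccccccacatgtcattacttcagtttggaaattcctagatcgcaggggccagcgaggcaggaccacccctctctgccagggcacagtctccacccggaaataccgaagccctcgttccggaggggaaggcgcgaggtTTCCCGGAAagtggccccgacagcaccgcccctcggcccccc
Itgax promoter: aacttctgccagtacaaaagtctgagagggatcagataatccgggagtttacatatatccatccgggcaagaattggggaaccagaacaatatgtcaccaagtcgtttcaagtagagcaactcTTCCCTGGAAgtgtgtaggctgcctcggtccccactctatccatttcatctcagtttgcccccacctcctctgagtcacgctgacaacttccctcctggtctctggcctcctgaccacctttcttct

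The *Icam1* match lies at −42 to −34 and the *Itgax* match at −127 to −118, counted with no base 0. The search covered 300 bases, 250 before and 50 after the start, on both strands, in the 7 of the 9 genes that had an entry (*Itgal* and *Itgb2* had none). The interferon γ-activated site was found in 8.3% of 32851 promoters of the same length and the STAT6-type site in 6.95%. The antioxidant response element, searched as TGACNNNGC or TGAGNNNGC, occurred in 27.8% of all promoters and was found in *Itgax* (19 to 27 after the start), *Itgb1* (−21 to −13) and *Itgam* (31 to 39 after the start). The PU.1 motif GAGGAAGT was found in *Itgav* (−9 to −2) and in 3.2% of promoters. The ISRE (GAAA repeated with 2 bases between, 3.44% of promoters) and the NF-κB consensus (4.51%) had no match in the 7 windows. The latter was searched as GGGRNWYYCC, with R for A or G, W for A or T and Y for C or T. The stretch tggaaattcc of the *Icam1* promoter departs from it in the first base. Sites that depart from a pattern were not counted, so no match does not show that a site is absent. A match is a description of letters, and no binding was measured here.

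*Itgb2* (probe A_51_P262208), the β2 chain that all 3 leukocyte α chains below need, was about 2-fold higher in KpCKO under each stimulus. Its level in Con was 4.31 and 4.47 in the WT cultures and 5.70 and 5.48 in the KpCKO cultures. In M1 it was 5.30 and 5.02 in WT and 6.31 and 6.01 in KpCKO. In M2 it was 4.49 and 4.57 in WT and 5.85 and 5.45 in KpCKO. The lowest KpCKO array lay above the highest WT array in each of the 3 stimuli. The log2 difference was 1.20 in Con (SE 0.16, 95% interval 0.82 to 1.58, adjusted p = 0.0153), 0.998 in M1 (0.62 to 1.37, adjusted p = 0.0116) and 1.12 in M2 (0.75 to 1.50, adjusted p = 0.0221). Over the 3 stimuli it was 1.11 (adjusted p = 0.000705), a 2.15-fold difference, and this call held without any 1 array, with an adjusted p of at most 0.0049.

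The call of *Itgb2* in Con was lost without WT Con replicate 1 or either KpCKO Con replicate (adjusted p at most 0.126), that in M1 without WT M1 replicate 2 or KpCKO M1 replicate 1 (at most 0.075), and that in M2 without any 1 of the KpCKO Con, WT M2 or KpCKO M2 replicates (at most 0.163). Among 10 neutrophil markers tested, which bear on a β2-rich cell type, *Mmp8* (2.14), *Mpo* (1.06) and *Csf3r* (0.47) were higher and *Retnlg* (−1.20) lower in KpCKO over the 3 stimuli on the log2 scale, beside 8.61% and 8.54% of all genes. The median of the 10 was −0.0055 over the 3 stimuli, −0.09 in Con, 0.0044 in M1 and −0.36 in M2. The log2 of the summed level of 11 neutrophil markers was 4.42 and 3.64 in WT Con and 4.63 and 4.17 in KpCKO Con. It was higher in KpCKO in 5 of the 6 pairs of culture and stimulus, in M2 culture 2 with 4.04 against 4.02. *Elane* was below background on all, and the part of these markers in the difference of *Itgb2* was not tested.

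With M1 stimulation *Itgb2* rose by a log2 difference of 0.77 in WT (0.40 to 1.15, adjusted p = 0.00459) and 0.57 in KpCKO (0.20 to 0.95, adjusted p = 0.0213), but by 0.08 and 0.02 with quantile normalization in place of the percentile (adjusted p = 0.658 and 0.900), so its M1 rise depended on the scaling. Without either of the KpCKO Con or KpCKO M1 replicates the KpCKO rise was also lost (adjusted p at most 0.107). With IL-4 the differences were 0.14 in WT and 0.06 in KpCKO (adjusted p = 0.594 and 0.842).

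*Itgax* (probe A_51_P303424), the αX chain and a marker used for dendritic cells, showed the largest difference between the genotypes of the 9 genes. In Con its level was 0.35 and 0.49 in the WT cultures and 3.88 and 2.93 in the KpCKO cultures. In M1 it was 2.69 and 2.46 in WT and 4.24 and 3.65 in KpCKO. In M2 it was 2.47 and 3.08 in WT and 4.72 and 4.11 in KpCKO. The groups did not overlap in any stimulus, and WT Con was the only group below 2. The log2 difference was 2.99 in Con (SE 0.35, 2.15 to 3.83, adjusted p = 0.0108), a 7.94-fold difference, 1.37 in M1 (0.53 to 2.21, adjusted p = 0.0437) and 1.64 in M2 (0.80 to 2.48, adjusted p = 0.0852, not called). Over the 3 stimuli it was 2.0 (1.52 to 2.48, adjusted p = 0.00155), called without any 1 array, with an adjusted p of at most 0.00817.

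In the order of mean *Itgax* levels, WT Con stood lowest and apart, followed by WT M1, WT M2, KpCKO Con, KpCKO M1 and KpCKO M2, and from WT M1 on each group overlapped the next. The call in Con was lost without either WT Con replicate or KpCKO Con replicate 1 (adjusted p at most 0.104). The call in M1 was lost without any 1 of the WT Con, WT M1, KpCKO M1 or KpCKO M2 replicates (at most 0.201).

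In WT BMDMs *Itgax* rose with both stimuli, by a log2 difference of 2.16 with M1 (1.32 to 2.99, adjusted p = 0.00161) and 2.36 with IL-4 (1.52 to 3.20, adjusted p = 0.00758, and 0.0643 without WT Con replicate 1). In KpCKO BMDMs, which started from the higher level, the differences were 0.54 with M1 (95% interval −0.30 to 1.37, adjusted p = 0.246) and 1.01 with IL-4 (0.17 to 1.85, adjusted p = 0.123), neither called. The difference between the genotypes in the response was itself tested. It was −1.62 for M1 (−2.80 to −0.44, unadjusted p = 0.0144, adjusted p = 0.215) and −1.35 for IL-4 (−2.53 to −0.17, unadjusted p = 0.0309, adjusted p = 1.0), below 0 in both cultures for each, and did not pass.

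Dendritic cell markers were followed beside *Itgax*. None of the 5 tested (*Flt3*, *Zbtb46*, *Ccr7*, *Siglech* and *Batf3*) was called between the genotypes in any stimulus. The log2 of their summed level in Con was −0.12 and 0.29 in WT and 0.40 and 0.85 in KpCKO, in M1 2.75 and 2.45 in WT and 3.11 and 2.42 in KpCKO, and in M2 4.79 and 5.17 in WT and 4.67 and 5.06 in KpCKO. The WT and KpCKO sums did not overlap in Con and overlapped in M1 and M2. In Con the KpCKO sums were the higher, as *Itgax* was, and single markers differed by up to 1.33 on the log2 scale (*Siglech*, adjusted p = 0.121). *Batf3* rose with IL-4 by 5.23 in WT and 4.54 in KpCKO (adjusted p = 0.000904 and 0.00217). The part of these markers in the differences of *Itgax* was not tested.

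*Itgal* (probe A_51_P466378), the αL chain of the ICAM-1 receptor LFA-1, rose strongly with M1. Its level was 1.45 and 1.95 in WT Con and 5.07 and 5.65 in WT M1, and 1.11 and 1.80 in KpCKO Con and 4.24 and 5.12 in KpCKO M1. All M1 arrays lay above all Con arrays. The rise was 3.66 on the log2 scale in WT (3.29 to 4.02, adjusted p = 6.54e-06), 12.6-fold, and 3.23 in KpCKO (2.86 to 3.59, adjusted p = 1.72e-05), 9.35-fold. With IL-4 the level was 0.79 and 1.25 in WT M2 and 0.21 and 1.21 in KpCKO M2, a log2 difference of −0.69 (adjusted p = 0.0268) and −0.75 (adjusted p = 0.0300) from Con. Both falls were of about the size of the gap between the cultures, and the KpCKO groups overlapped. They were lost without any 1 of the WT Con or WT M2 replicates in WT (adjusted p at most 0.17), and without any 1 of the WT Con, KpCKO Con or KpCKO M2 replicates in KpCKO (at most 0.142).

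In M1 *Itgal* was lower in KpCKO than in WT by a log2 difference of −0.68 (−1.04 to −0.31, adjusted p = 0.0315), in both cultures (−0.83 and −0.53), although the arrays of the 2 groups overlapped. It was −0.25 in Con and −0.31 in M2, neither called, and −0.41 over the 3 stimuli (adjusted p = 0.0238). The M1 call was lost with quantile normalization (−0.45, adjusted p = 0.102) and without any 1 of the WT Con, KpCKO Con or WT M1 replicates or KpCKO M1 replicate 1 (adjusted p at most 0.162). The call over the 3 stimuli was lost without any 1 of WT Con replicate 1, either KpCKO Con replicate, and replicate 1 of KpCKO M1, WT M2 or KpCKO M2 (at most 0.0791), without the culture as a block (0.390) and after normexp correction (0.0551).

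*Itgam* (probe A_52_P669155), the αM chain of the complement receptor Mac-1 and a general marker of myeloid cells, had the smallest M1 difference of the 9 genes in both genotypes, although with quantile normalization that of *Itgb2* was smaller. Its level was 2.61 and 3.02 in WT Con, 3.01 and 3.63 in WT M1, 2.66 and 2.97 in KpCKO Con and 2.44 and 2.91 in KpCKO M1. Culture 2 was above culture 1 in every group, and the WT M1 and WT Con arrays overlapped. In WT the log2 difference with M1 was 0.51 (0.25 to 0.77, adjusted p = 0.0057), 0.40 in culture 1 and 0.62 in culture 2, but 0.10 with quantile normalization (adjusted p = 0.403). After a normexp background correction its difference less the median of all genes was −0.08 (0.38 without that correction). The WT difference itself stayed above 0 under each scaling. Its size, and its direction relative to that median, depended on the scaling. In KpCKO the difference with M1 was −0.14 (−0.40 to 0.12, adjusted p = 0.322), and −0.38 with quantile normalization, where it passed (adjusted p = 0.0151).

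In M1 *Itgam* was lower in KpCKO than in WT, at −0.65 (−0.91 to −0.39, adjusted p = 0.0139), with −0.57 and −0.73 in the 2 cultures, and every KpCKO array below every WT array. The differences in Con (0.00, −0.26 to 0.26) and in M2 (0.12, −0.14 to 0.38) were not called. The M1 difference was −0.48 with quantile normalization (adjusted p = 0.0221), −0.68 with a dimmer second probe (adjusted p = 0.0160 among all probes) and −0.45 after normexp correction (adjusted p = 0.0879), and it was lost without WT M1 replicate 2 or KpCKO M1 replicate 1 (adjusted p at most 0.0808). With IL-4 *Itgam* fell in WT by 0.43 on the log2 scale, from 2.61 and 3.02 to 2.23 and 2.53 (adjusted p = 0.0395). This call held only when a WT M1 array was the one left out and was lost without any 1 of the other 10 arrays (adjusted p at most 0.213). The KpCKO M2 level was 2.34 and 2.67, a difference of −0.31 from KpCKO Con (adjusted p = 0.127).

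*Icam1* (probe A_52_P613241), the ligand, had the largest M1 rise of the 9 genes and no called difference between the genotypes. Its level was 0.44 and 0.99 in WT Con, and 6.67 and 6.34 in WT M1. In the KpCKO cultures it was 0.21 and 0.90 in Con, and 6.71 and 6.15 in M1. All 4 M1 arrays lay far above all other arrays. The rise was 5.79 on the log2 scale in WT (4.79 to 6.79, adjusted p = 4.32e-05), 55.3-fold, and 5.88 in KpCKO (4.88 to 6.88, adjusted p = 7.15e-05), 58.8-fold, and neither call was lost without any 1 array.

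The difference of *Icam1* between KpCKO and WT was −0.17 (Con), −0.08 (M1) and −0.52 (M2), with 95% intervals of −1.16 to 0.83, −1.07 to 0.92 and −1.52 to 0.48, and differences within these bounds remain possible. With IL-4 the level was 1.31 and 2.44 in WT and 0.88 and 1.82 in KpCKO, with log2 differences from Con of 1.16 (0.16 to 2.15, adjusted p = 0.109, and 0.0431 in a fit on the WT Con and M2 arrays alone) and 0.80 (−0.20 to 1.80, adjusted p = 0.276). Both WT M2 arrays lay above both WT Con arrays, and the KpCKO groups overlapped. The gene that followed *Icam1* most closely over the 12 arrays was *Irf1*, a transcription factor gene induced by interferon γ (r = 0.998). This r largely restates the gap between the M1 arrays and all others, which is also a gap between slides.

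**Figure D2:**
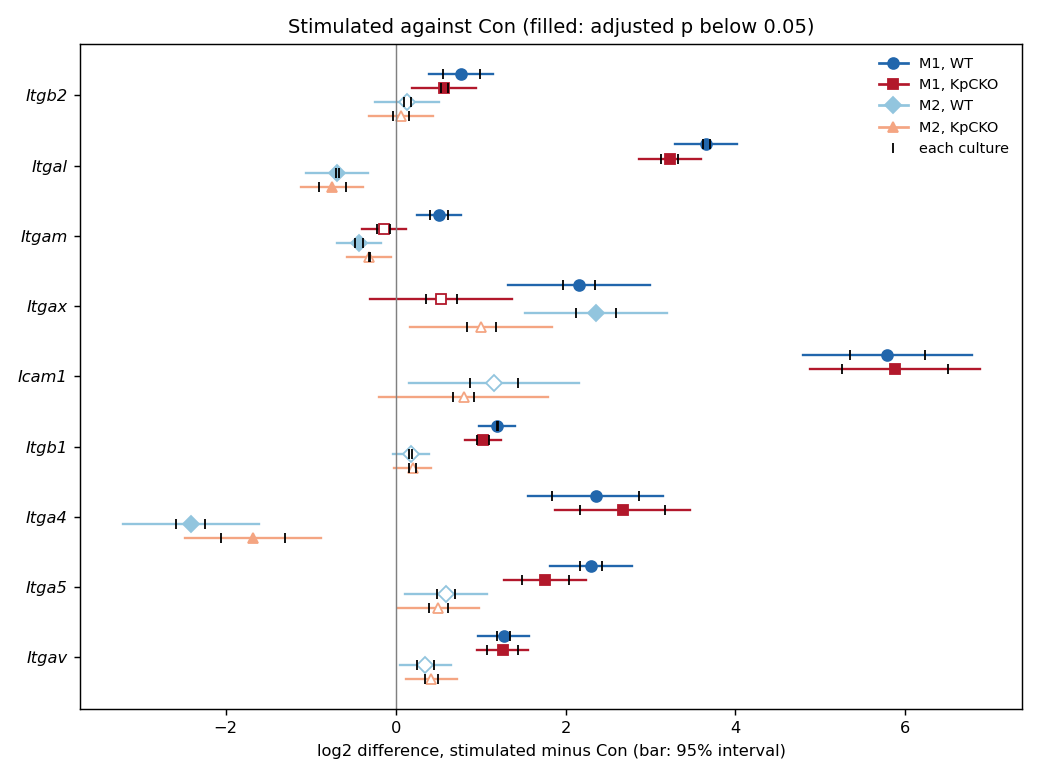
Log2 difference between stimulated and Con BMDMs (x axis) for each gene (y axis), in WT and KpCKO for M1 and M2, with 95% intervals as bars and the value of each culture as a tick, and filled symbols where the adjusted p was below 0.05. *Icam1* lies near 5.8 with M1 in both genotypes, *Itga4* rises with M1 and falls with IL-4, and the *Itgax* differences are 2.16 and 2.36 in WT and 0.54 and 1.01 in KpCKO.

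*Itgb1* (probe A_51_P286527), the β1 chain, varied little between the cultures of a group. Its level was 2.38 and 2.40 in WT Con, 3.57 and 3.60 in WT M1, and 2.57 and 2.56 in WT M2. In KpCKO it was 2.23 and 2.09 in Con, 3.19 and 3.19 in M1, and 2.39 and 2.33 in M2. KpCKO lay below WT under each stimulus with no overlap. *Itgb1* rose with M1 by a log2 difference of 1.20 in WT (0.98 to 1.41, adjusted p = 4.87e-05) and 1.03 in KpCKO (0.81 to 1.24, adjusted p = 0.000154). The difference between the genotypes was −0.23 in Con (adjusted p = 0.320), −0.40 in M1 (−0.61 to −0.18, adjusted p = 0.0316) and −0.21 in M2 (adjusted p = 0.363), and −0.28 over the 3 stimuli (−0.40 to −0.15, adjusted p = 0.0143).

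The M1 difference of *Itgb1* was −0.23 with quantile normalization (adjusted p = 0.122), and its call was lost without any 1 array other than a KpCKO Con array (adjusted p at most 0.137). The call over the 3 stimuli was lost without either WT Con replicate (at most 0.0545) and after normexp correction (0.0782). A second, dimmer *Itgb1* probe gave −0.50 in M1 and −0.33 over the 3 stimuli, also called among all probes (adjusted p = 0.0366 and 0.0213). With IL-4 the log2 difference was 0.18 in WT and 0.20 in KpCKO, neither called (adjusted p = 0.221 and 0.210).

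*Itga4* (probe A_52_P223495), the α4 chain of the VCAM-1 receptor VLA-4, moved in opposite directions with the 2 stimuli. In WT its level was 1.83 and 2.40 in Con, 4.69 and 4.24 in M1, and −0.42 and −0.18 in M2. In KpCKO it was 0.90 and 2.12 in Con, 4.07 and 4.29 in M1, and −0.40 and 0.06 in M2. The M1 arrays all lay above and the M2 arrays all below the Con arrays. The log2 difference with M1 was 2.35 in WT (1.55 to 3.15, adjusted p = 0.000861) and 2.67 in KpCKO (1.87 to 3.47, adjusted p = 0.000709). With IL-4 it was −2.41 in WT (−3.21 to −1.61, adjusted p = 0.006, and 0.0523 without WT Con replicate 2) and −1.68 in KpCKO (−2.48 to −0.88, adjusted p = 0.0277).

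The KpCKO fall with IL-4 was lost without any 1 of 7 arrays, the 2 WT Con arrays, KpCKO Con replicate 2 and the 4 M2 arrays (adjusted p at most 0.127), and the other 2 *Itga4* probes gave −1.09 and −1.08 (adjusted p = 0.0625 and 0.0652 among all probes). The brightest probe gave no called difference of *Itga4* between the genotypes, with −0.60 in Con (−1.40 to 0.20), −0.29 in M1 (−1.09 to 0.51) and 0.13 in M2 (−0.67 to 0.93). The KpCKO Con cultures were 1.22 apart, more than this difference.

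*Itga5* (probe A_52_P364140), the α5 chain of the fibronectin receptor, rose with M1 from 0.28 and 0.36 to 2.46 and 2.79 in WT, and from 0.69 and 0.23 to 2.17 and 2.27 in KpCKO. The groups did not overlap in either genotype. The log2 difference was 2.30 in WT (1.82 to 2.78, adjusted p = 9.27e-05) and 1.76 in KpCKO (1.28 to 2.24, adjusted p = 0.000481). With IL-4 the level was 0.77 and 1.06 in WT and 1.08 and 0.85 in KpCKO. These were differences of 0.59 and 0.50 from Con, above Con in both cultures of each genotype, and not called (adjusted p = 0.0930 and 0.169), although the WT difference passed in a fit on those 4 arrays alone (0.0493). KpCKO and WT differed by 0.14 in Con, −0.40 in M1 (−0.88 to 0.08) and 0.05 in M2, none called.

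*Itgav* (probe A_51_P382484), the αv chain, was lower in KpCKO over the 3 stimuli together, with every KpCKO array below every WT array of its stimulus. Its level was 1.50 and 1.52 in WT Con against 1.16 and 1.03 in KpCKO Con, and 2.69 and 2.87 in WT M1 against 2.23 and 2.47 in KpCKO M1. In M2 it was 1.94 and 1.78 in WT against 1.50 and 1.53 in KpCKO. The log2 difference was −0.42 in Con (adjusted p = 0.188), −0.43 in M1 (adjusted p = 0.0608) and −0.35 in M2 (adjusted p = 0.279), none called, and −0.40 over the 3 stimuli (−0.57 to −0.23, adjusted p = 0.0131), which held without any 1 array (adjusted p at most 0.0493) but not after normexp correction (0.120). A dimmer *Itgav* probe gave −0.83 in M1 and −0.67 over the 3 stimuli, both called (adjusted p = 0.0329 and 0.00922 among all probes).

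*Itgav* rose with M1 by a log2 difference of 1.27 in WT (0.97 to 1.57, adjusted p = 0.000157) and 1.26 in KpCKO (0.96 to 1.56, adjusted p = 0.000273). With IL-4 it was 0.35 and 0.42 above Con, in both cultures of each genotype, without passing the test (adjusted p = 0.107 and 0.0835). Over the 12 arrays *Itgav* and *Itgb1* correlated at r = 0.978, the highest of the pairs among the 9 genes. *Itga5* and *Itgb1* followed at 0.959, while *Itgax* and *Itgb2* reached 0.821 and *Itgam* and *Itgax* −0.31. These values describe 12 arrays that share groups, mice and slides.

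**Figure D3:**
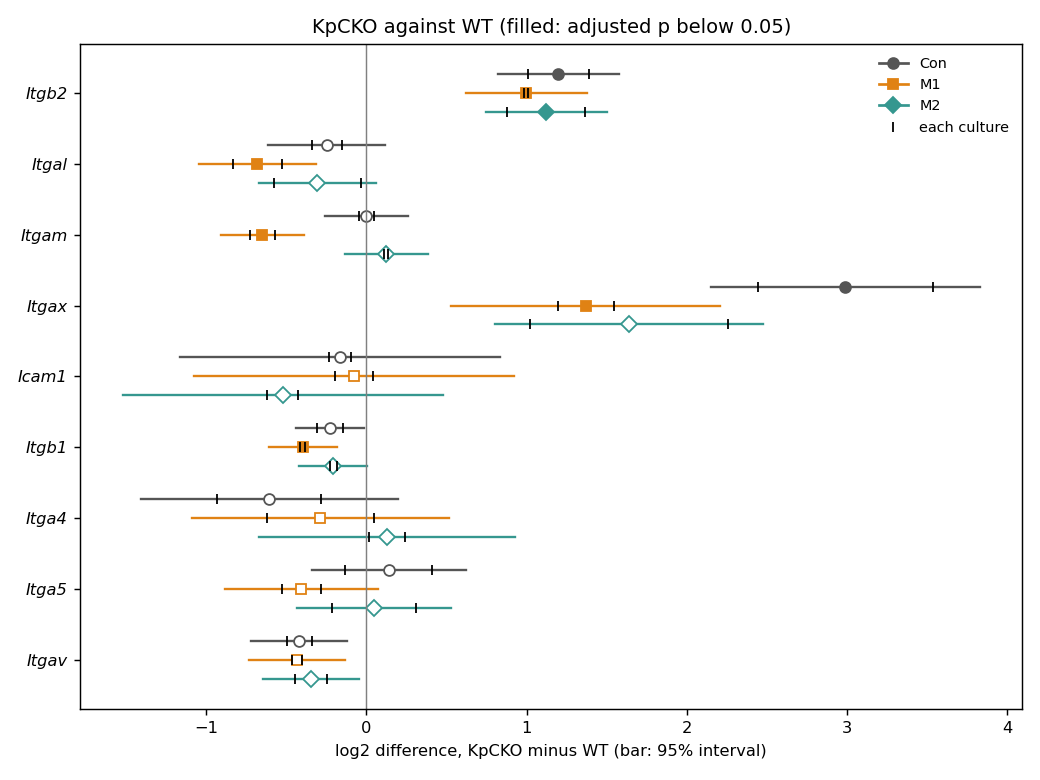
Log2 difference between KpCKO and WT BMDMs (x axis) for each gene (y axis) in Con, M1 and M2, with 95% intervals as bars, the value of each culture as a tick, and filled symbols where the adjusted p was below 0.05. *Itgb2* lies between 0.998 and 1.20 in the 3 stimuli, *Itgax* between 1.37 and 2.99, and *Itgav* and *Itgb1* stay below 0 in each.

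The order of the group means differed among the genes. It ran from KpCKO Con through WT Con, KpCKO M2, WT M2 and KpCKO M1 to WT M1 for both *Icam1* and *Itgav*. For *Icam1* the neighbours overlapped except at the step from WT M2 to KpCKO M1, while for *Itgav* they overlapped only between WT Con and KpCKO M2. *Itgb1* was lowest in KpCKO Con and KpCKO M2, with WT Con, WT M2, KpCKO M1 and WT M1 above them, and of these neighbours only KpCKO M2 and WT Con overlapped. For *Itgb2* the order was WT Con, WT M2, WT M1, KpCKO Con, KpCKO M2 and KpCKO M1, with an overlap only between KpCKO Con and KpCKO M2. For *Itgal* (lowest in KpCKO M2) and *Itga4* (lowest in WT M2) the means of M2 lay below those of Con and those of M1 above, with no overlap from WT Con to KpCKO M1, nor, for *Itga4*, from KpCKO M2 to KpCKO Con. *Itga5* ran from WT Con through KpCKO Con, WT M2, KpCKO M2 and KpCKO M1 to WT M1, and overlapped between the 2 Con groups and between the 2 M2 groups. For *Itgam*, from WT M2 to WT M1, all neighbours overlapped.

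The difference between the genotypes in the response to a stimulus was called for none of the 9 genes by limma, neither for M1 nor for IL-4. At an unadjusted p below 0.05 there were 2 genes for M1, *Itgax* and *Itgam* (−0.65, unadjusted p = 0.00418, adjusted p = 0.160), and 1 for IL-4, *Itgax*. Over all genes, 16 and 2 were called by adjusted p, which is another threshold. The share of all genes at an unadjusted p below 0.05 is not given here, so these counts are not a result about the 9 genes. Models fitted without the block, with other scalings, filters and variances, or with 1 array left out also called none of the 9.

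For each gene the 2 genes with the most similar pattern were taken from 12101 genes well above background on all arrays, by Pearson's r over 12 arrays. They were *Cap1* (0.967) and *Pla2g7* (0.955) for *Itgb2*, *Alas1* (0.915) and *Ptgir* (0.912) for *Itgax*, and *Serp1* (0.949) and *Ap3m2* (0.945) for *Itgam*. *Itga4* was most like *Clec12a* (0.996) and *Dram2* (0.987), and *Itgav* most like *Pdgfrl* (0.988) and *Fmnl2* (0.983). *Itgb1*, *Itga5* and *Itgal* each had 2 genes with r of 0.993 or above, *Nufip1* and *Sar1a*, *Snf8* and *Ubtd2*, and *Gm5431* and *Sppl2a*. The second for *Icam1* was *Ggct* (0.995). Each r describes 12 arrays that share groups, mice and slides.

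Other genes of the integrin pathway were followed in lists, whose counts stand beside the shares over all genes, 34.5% higher and 28.7% lower with M1 in WT, 7.43% and 8.58% in KpCKO against WT in M1, and 8.61% and 8.54% over the 3 stimuli. Lists this short were not tested as lists. Of 12 other α and 7 other β chains, 9 and 5 were tested, the rest having no matched probe or lying below background. Of the 9 α chains, 3 rose and 2 fell with M1 in WT, and of the 5 β chains 1 fell. *Itga1*, a chain of a collagen receptor, rose by a log2 difference of 3.09, *Itga8* by 2.21 and *Itga3* by 1.15, while *Itga6*, a laminin receptor chain, fell by 3.38 and *Itgae*, which pairs with *Itgb7*, by 2.21. *Itgb5*, a partner of αv, fell by 2.54 (adjusted p = 2.30e-05). *Itgb3*, another partner of αv, rose with IL-4 by 4.53 in WT and 3.37 in KpCKO.

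Between the genotypes, 2 of the 9 other α chains were higher and 1 lower over the 3 stimuli, and 2 of the 5 β chains higher and 1 lower, beside 8.61% and 8.54% of all genes. *Itgb7*, a partner of α4, was higher by 1.33 (adjusted p = 0.0185) and *Itga9*, which pairs with β1, lower, at −1.36 (adjusted p = 0.00556). *Itgb3* was higher in KpCKO Con by 1.28 (adjusted p = 0.0391), with means of 1.66 in KpCKO and 0.38 in WT, and its M2 means were 5.02 and 4.91.

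**Figure D4:**
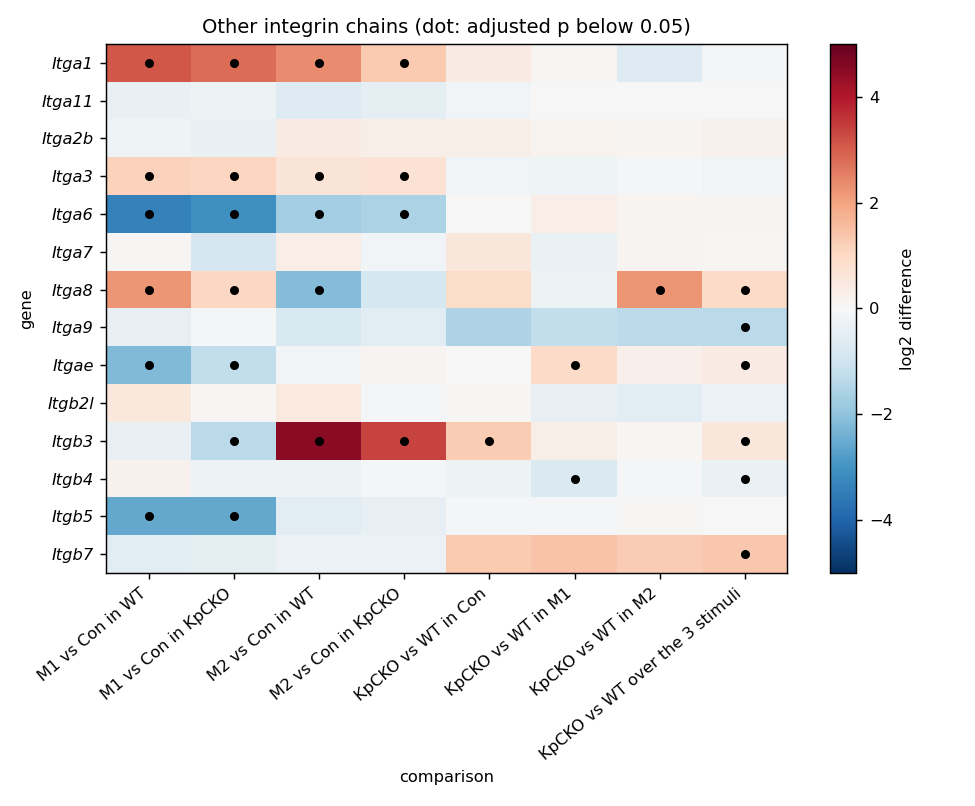
Log2 difference (colour) of the 14 other integrin chains tested (y axis) in 8 comparisons (x axis), with a dot where the adjusted p was below 0.05. *Itga6* and *Itgb5* are lower and *Itga1* and *Itga3* higher in M1 of both genotypes, and *Itgb3* is higher in M2 of both.

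Of 15 integrin ligands tested besides *Icam1*, 6 rose and 1 fell with M1 in WT, beside 34.5% and 28.7% of all genes. *Vcam1*, the ligand of the α4β1 integrin, rose by 6.01 in WT (adjusted p = 9.26e-06), *Icam4* by 2.60 and *Icam5* by 1.45, and *Icam2* fell by 2.15. Over the 3 stimuli *Nid1*, a basement membrane protein gene, was higher in KpCKO by 1.44 (adjusted p = 0.000412), *Spp1* (osteopontin) by 0.63 and *Jam2* lower, at −0.59. The median of the ligands was 0.45 with M1 in WT, beside 0.13 over all genes.

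Among 17 genes of the activators and adaptors that switch integrins on from inside the cell, 6 rose and 2 fell with M1 in WT, led by *Rap1b* (2.02), *Cytip* (1.67) and *Tln1* (1.22), the talin gene, with *Rassf5* (−1.65) and *Tln2* (−1.10) falling. In M1 of KpCKO against WT 1 was higher and 3 lower, *Tln2* (1.03) and *Cytip* (−2.48, adjusted p = 0.00754), *Rap1b* (−0.89) and *Tln1* (−0.49). *Cytip* encodes a regulator of LFA-1 adhesion. The median was −0.15, beside −0.09 over all genes.

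Of 25 genes of adhesion sites and of signalling from bound integrins, 11 rose and 3 fell with M1 in WT, beside 34.5% and 28.7% of all genes (median 0.37 against 0.13), led by the kinase gene *Src* (4.70), *Zyx* (3.76), which encodes zyxin of focal adhesions, and the adaptor gene *Lcp2* (3.43), while *Parvg* (−1.50), *Parvb* (−1.26) and *Actn4* (−0.49) fell. In M1, 1 was higher and 7 lower in KpCKO, with *Vav3* (−1.15), *Lyn* (−0.70) and *Nck1* (−0.61) the largest falls and *Parvg* (0.73) the rise. *Vav3* was also lower in KpCKO Con (−0.82) and M2 (−0.66). Of 8 genes of membrane partners of integrins, 4 rose and 3 fell with M1 in WT, and *Cd9*, *Cd151* and *Cd81*, tetraspanin genes, were higher in KpCKO over the 3 stimuli by 0.69, 0.54 and 0.52.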

How the data were processed

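Spots were extracted with Agilent Feature Extraction 10.7.3.1 (the version is from the submitters' processing notes). For each of the 12 one-colour arrays the authors deposited the background-subtracted intensity of each spot with flags for outliers, saturation and signal well above background. They also deposited a matrix of normalized log2 values, which was used as an alternative. On 40749 shared probes the matrix followed the log2 intensity less the 75th percentile of the array and the median of the probe (slopes 0.999623 to 1.00036). The columns had medians between −0.07 and 0.31. No saturated probe was found. The number of arrays limits the precision.

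Control and outlier spots were left out, spots of a probe were averaged, and log2 intensities were set relative to the 75th percentile of the array. Of 41174 probes, 26690 matched 18217 symbols by accession in a RefSeq table of another build than the array's, which served for names only. The others kept their own identifier. The brightest probe stood for a gene. Genes had to be well above background in 1 whole group or more, which left 22367, and a comparison tested 22354 or more of them. One limma 3.58.1 model (R 4.3.3) held the 6 groups with culture as a block (5 residual and 1.92 prior degrees of freedom), tested on simulated data, with a threshold of 0.05 on the Benjamini-Hochberg adjusted p. The pairing by culture comes from the labels and the study's methods. Deviations of 22084 genes from their group means correlated at 0.162 to 0.597 between same-numbered arrays in 15 pairs of groups. The members, lists and motifs were chosen with earlier results of these data known. The genes named are the 9 members, *Keap1*, the 2 genes most like each member, and for each pathway list up to 3 rises and 3 falls among called genes with M1 in WT or between the genotypes. Values of named genes in other comparisons and the markers given beside *Itgax* and *Itgb2* were added after the data were seen. The alternatives were other scalings, filters, probe rules, blocks and variances, an unpaired t-test, and leaving out each array. Figures were made with matplotlib 3.10.9 in Python 3.11.15, with numpy 2.4.6 and pandas 2.3.3.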

Additional observations from a re-analysis of the deposited data

Results flagged for a closer look

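The log2 difference of *Itgam* with M1 was 0.51 in WT, above 0 in both cultures, and −0.14 in KpCKO, below 0 in both. The KpCKO difference did not pass (adjusted p = 0.322), and the WT difference depended on the scaling, with 0.10 under quantile normalization (adjusted p = 0.403) and −0.08 relative to the median of all genes after normexp correction. The difference between these responses was tested in the model and did not pass (−0.65, unadjusted p = 0.00418, adjusted p = 0.160).

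The difference of *Itgam* between KpCKO and WT was also of opposite sign in M1 (−0.65) and in M2 (0.12), in both cultures of each. This contrast was added after the data were seen. It came to −0.77 (SE 0.15, unadjusted p = 0.00163, adjusted p = 0.117) and did not pass, beside 22 of 22354 genes that did.

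The difference of *Itga4* between KpCKO and WT was below 0 in both cultures in Con (−0.60) and above 0 in both in M2 (0.13). This was the brightest probe, and the other 2 gave −0.03 and −0.09 in M2, below 0 in culture 1 and above 0 in culture 2. The difference of its IL-4 response between the genotypes was 0.73 (unadjusted p = 0.169, adjusted p = 1.0).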

How the results depend on the processing

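With 2 arrays a group, most calls between the genotypes within a stimulus rest on the variance shared over 12 arrays. Below, called genes of the 9 are counted. Quantile normalization gave 3 in KpCKO against WT in M1, in place of 5, and normexp correction gave 1 there, 1 with IL-4 in KpCKO in place of 2 and 2 over the 3 stimuli in place of 5. Calls over all genes fell with normexp too. They went from 1660 higher and 1919 lower to 479 and 436 in M1, and from 1925 and 1909 to 839 and 930 over the 3 stimuli. For the other alternatives the counts over all genes are not given here, so those of the 9 are not a result about these genes. Without the filter on dim probes there were 2 with IL-4 in WT in place of 4, 0 with IL-4 in KpCKO and 2 in KpCKO against WT in M1. Trended and robust variances gave 2 in KpCKO against WT in M2 in place of 1. With the fit on only the arrays compared, there were 0 with IL-4 in KpCKO, 0 between the genotypes in Con, M1 and M2, 7 with M1 in WT, 6 with M1 in KpCKO and 5 with IL-4 in WT (*Icam1* and *Itga5* gained, *Itgam* lost). An unpaired t-test after Benjamini-Hochberg adjustment called 5 with M1 in WT in place of 9 and 0 in the 6 other comparisons it covers, and unadjusted it called 1 with IL-4 in KpCKO, 3 in KpCKO against WT in M1 and 2 in M2. The study's methods name this test, but the paper chose its array genes by fold change.

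Without the replicate block that pairs the cultures, 2 were called with IL-4 in WT, 0 with IL-4 in KpCKO, 1 in KpCKO against WT in M1 (*Itgb2*), 4 over the 3 stimuli (not *Itgal*) and 8 with M1 in WT (not *Itgam*).

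Leaving out 1 array gave 9 with M1 in WT each time, 6 to 7 with M1 in KpCKO, 1 to 4 with IL-4 in WT, 0 to 2 with IL-4 in KpCKO, 0 to 2 between the genotypes in Con, 0 to 4 in M1, 0 to 1 in M2 and 3 to 6 over the 3 stimuli. Where this leaves a group with 1 array, that array was assumed to vary like the others. The shares over all genes in these fits, and in the fit without the replicate block, are not given here. These counts are therefore not a result about the 9 genes.

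No called difference changed sign under any alternative. Normexp correction moved the median of all genes with M1 in WT by 0.28 and quantile normalization by −0.21, and normexp also moved it by 0.30 with IL-4 in WT, 0.13 with M1 in KpCKO, and −0.13, −0.24 and −0.14 in KpCKO against WT in M1, in M2 and over the 3 stimuli. For the differences in response the median moved by 0.10 (M1, quantile), −0.15 and −0.21 (M1 and IL-4, normexp). Less that median, *Itgam* with M1 in WT was the only call that changed sign. Of all calls in KpCKO against WT in M1, 1660 were higher and 1919 lower, but 2030 and 1352 with quantile normalization. With normexp the split was 1028 higher and 646 lower with IL-4 in WT (main 1929 and 1835), 457 and 233 with IL-4 in KpCKO (1270 and 1016), and 124 and 101 in KpCKO against WT in M2 (287 and 144). Slide as a block was not run, since it coincides with the stimulus. The causes were not tested.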
